A study of Mus musculus with 11 samples.

Results

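The genes described here are 7 members of the gap junction and pannexin channel families, Gja1, Gjb6, Gjb2, Gjb1, Gjc3, Panx1 and Panx2, out of 24421 genes listed in each sample. They were chosen by name, with earlier results of these data already known. Astrocytes carrying the Aldh1l1-eGFP transgene were sorted by FACS from C57BL/6 mice aged 16 weeks. Their total RNA was sequenced in 3 samples each of the brainstem (BS), the hippocampus (HC) and the olfactory bulb (OB), and in 2 samples of the cortex (CX). The eGFP is driven from a bacterial artificial chromosome by the regulatory region of Aldh1l1, a folate metabolism gene of astrocytes, and all groups carry it. Males and females were both used, and the labels name no treatment and do not give the sex of a sample. Samples are named here by region and replicate number. The labels do not say whether replicates came from separate animals, so p-values measure the spread between these samples, which may be technical.

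Connexins assemble in rings of subunits into hemichannels, and hemichannels of neighbouring cells dock to form gap junctions that pass ions and small metabolites. Astrocytes are coupled into networks mainly by connexin 43 (Gja1) and connexin 30 (Gjb6), with connexin 26 (Gjb2) as a further astrocytic subunit, whereas connexin 32 (Gjb1) and connexin 29 (Gjc3) are connexins of myelinating glia. Pannexins form large-pore channels of the plasma membrane that release ATP and do not usually build junctions between cells.

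Values are read counts divided by one size factor per sample, and a level per length divides them by the exonic kb of the gene. The samples held 2830746 to 14151670 reads on genes (median 5552215), so that 1 read was worth a value of 0.367 to 2.10, and intervals from reads cover counting error only. The sorted cells held the astrocyte markers in every sample, with all 10 of 10 detected and a summed value of 129898 to 702188. Markers of other cell types were present as well and differed among regions. Summed values of the 12 oligodendrocyte markers ran from 54237 to 93188 in BS and from 9995 to 16688 in OB. The 8 olfactory ensheathing markers summed to between 2024 and 2436 in OB and to at most 311.5 elsewhere. The 9 choroid plexus markers summed to between 76338 and 364868 in BS and HC samples and to at most 8353 in OB and CX. The 11 leptomeningeal markers reached 9107 in BS replicate 1, the highest, against 497.5 in CX replicate 1, the lowest. Igf2 alone held 6095 and 381 of these sums, and 1728 to 3427 in HC. By mean log2(value + 1) the same samples were highest and lowest, at 7.23 and 3.30. On that scale OB lay at 4.98 to 5.53 and HC at 3.65 to 5.90. Oligodendrocyte precursor markers summed to 904.6 to 2662, neuron markers to 1338 to 3766, microglia markers to 1008 to 3917, endothelial markers to 237 to 2227 and ependymal markers to 50.1 to 671. In bulk RNA of this kind, fewer cells of a type and less RNA per cell cannot be told apart.

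Gja1 and Gjb6 supplied most of the connexin and pannexin transcripts in every sample. Per length, both together made up between 85.0% and 96.6% of the summed level of the 7 genes. Mean levels per kb over the regions lay between 903 and 1577 for Gja1 and between 788 and 1099 for Gjb6. The next levels per kb were those of Gjc3, at 42.1 to 199, and of Gjb2, at 47.0 to 86.3. Panx2 followed at 8.95 to 18.6 per kb, and Gjb1 and Panx1 lay lowest, at 0.449 to 15.5 and 0.438 to 3.43 per kb. Gjb1 and Panx1 rested on 99 and 113 reads over all 11 samples, against 54030 for Gja1.

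**Figure D1:**
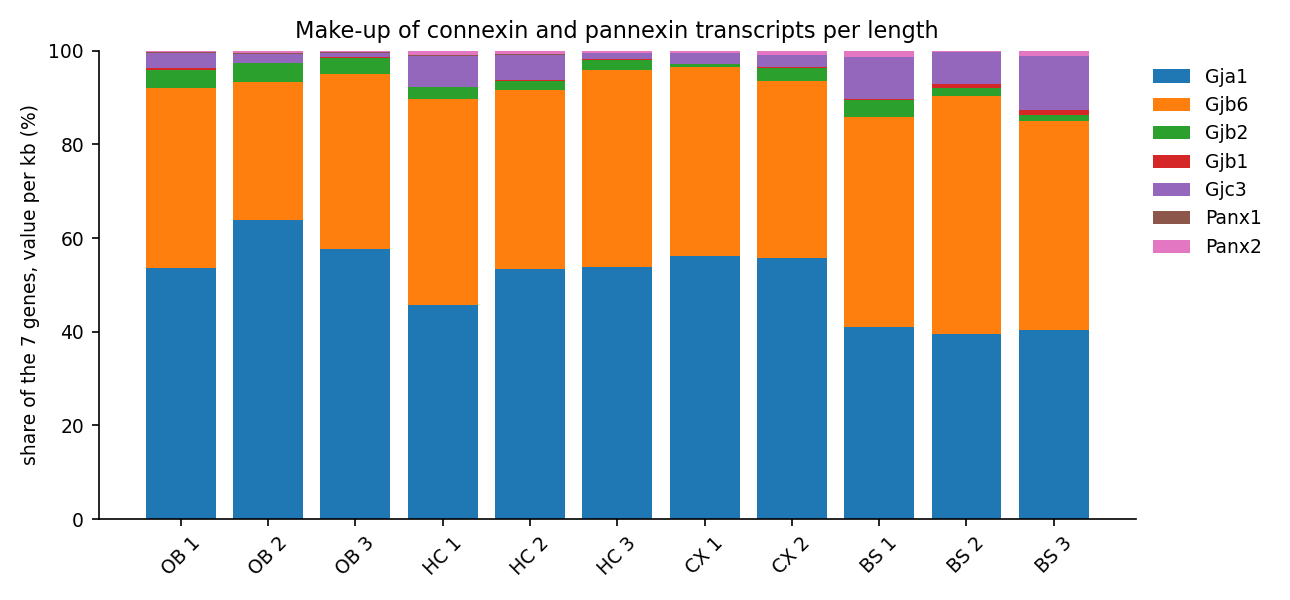
Share of each of the 7 genes in their summed level per kb of exon (y axis, percent), with 1 stacked bar for each of the 11 samples (x axis). Gja1 ran from 39.6% to 63.8% and Gjb6 from 29.5% to 50.7%, and the share of Gjc3 rose to 11.5% in BS replicate 3.

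Region differences were tested with limma on log2(value + 1) over 13875 genes that passed a filter on low reads, and all 7 genes passed it. The first test asked for any difference among the 4 regions at an adjusted p under 0.05. Only Gjc3 of the 7 genes passed it, where 16.5% of all genes tested did. The second set each region against the others pooled, and called a gene if its unadjusted p was under 0.01, its fold over 1.5 and, in 2 or more replicates of some region, its value over 5. By this rule 1 of the 7 genes was called in OB and 1 in BS, Gjc3 both times, against 8.04% and 9.03% of all genes. In HC limma called 0 of the 7, against 1.28% of all genes, with 0 at an unadjusted p under 0.05 and 0 called by edgeR and by DESeq2. In CX limma again called 0 of the 7, against 2.77% of all genes, with 1 at an unadjusted p under 0.05 (Gjb1) and 0 called by edgeR and by DESeq2.

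**Figure D2:**
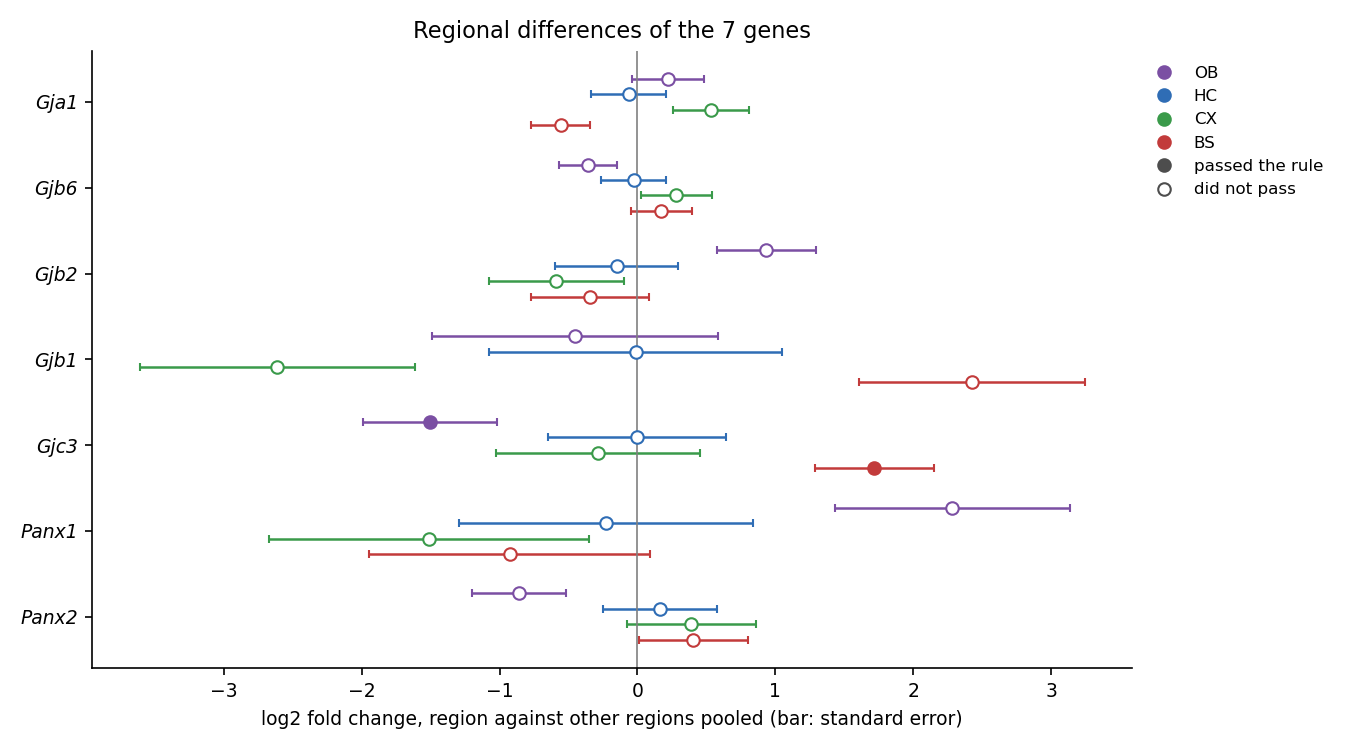
Log2 fold change of each of the 7 genes (y axis) in each region against the other regions pooled (x axis), with the standard error as the bar, and filled points for genes that passed the rule. Only Gjc3 has filled points, at -1.501 in OB and 1.72 in BS, while the bars of Gjb1 and Panx1 are the longest.

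Gja1 encodes connexin 43, the major gap junction protein of astrocytes, and lies on chromosome 10 of GRCm38 (56377330 to 56402513, plus strand). The 250 bases before its RefSeq start (chr10:56377050-56377299, build GRCm38.p6, plus strand) are shown because Gja1 and Gjb6 carry the ratio described further on. Capitals mark matches to 2 of 6 short motifs searched on both strands.

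Gja1: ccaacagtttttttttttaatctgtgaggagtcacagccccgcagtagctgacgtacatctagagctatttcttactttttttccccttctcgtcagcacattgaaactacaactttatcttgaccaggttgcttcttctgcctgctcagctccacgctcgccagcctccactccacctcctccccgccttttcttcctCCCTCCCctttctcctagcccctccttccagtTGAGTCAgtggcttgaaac

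The capitals are a reverse match to GGGAGGG, a MAZ motif, at 51 to 45 bases before the start and a TGANTCA match, the AP-1 motif, at 19 to 13 bases. Of 32851 mouse windows of this length, 19.69% held the first and 6.749% the second.

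Gja1 was highest in CX and lowest in BS. Its values in OB were 3674, 4708 and 4893 in replicates 1 to 3. In HC they were 2932, 3789.6 and 4959. In CX they were 5494 and 5136, and in BS 2277, 3941 and 2915. Both CX samples lay above every other sample, whereas BS overlapped with OB and HC through BS replicate 2. Region means were 5315 ± 253 (SD, n = 2) in CX, 4425 ± 657 (SD, n = 3) in OB, 3893 ± 1017 (SD, n = 3) in HC and 3044 ± 839 (SD, n = 3) in BS. The highest mean was 1.75 times the lowest. None of these differences passed its threshold. The adjusted p among the regions was 0.126, and the log2 difference of BS from the others was -0.56 (SE 0.22, unadjusted p of 0.0219, adjusted p = 0.153). For CX against BS it was 0.84 (SE 0.26, adjusted p = 0.0519). Without BS replicate 2, which had the highest Gja1 of its region, the adjusted p among the regions was 0.0263, that of CX against BS 0.00886 and the unadjusted p of BS against the others 0.00585. Without HC replicate 1 the unadjusted p of BS against the others was 0.00527, and CX against BS had an adjusted p of 0.0362 without HC replicate 1 and of 0.0413 without HC replicate 3. Without BS replicate 2, Gja1 was also called between OB and BS. Neighbours in the order CX, OB, HC and BS did not pass a pairwise test, with adjusted p-values of 0.688, 0.734 and 0.516.

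Astrocyte markers differed among the regions in both directions. Of the 10 markers, 2 were called lower in BS, the glutamate transporter Slc1a3 and the glutamine synthetase Glul, and 0 were called higher. The test among the 4 regions passed 4 of the 10 (Gfap, Slc1a3, Glul and Atp1b2), where 16.5% of all genes passed. Gfap values were 3168 to 4028 in OB, 3370 to 3976 in HC, 889 to 1309 in CX and 1160 to 1779 in BS. Atp1b2, a subunit of the sodium pump that passed the test among the regions (adjusted p = 0.0307), had its highest mean in BS, at 34412 ± 11123 (SD, n = 3), and the BS log2 differences of S100b and Aqp4 were 0.64 and 0.41 without passing. The summed level of the list was 129898 to 345854 in BS and 624773 to 702188 in CX, of which the glutamate transporter Slc1a2 alone held 472464 to 541892 in CX. Summed choroid plexus markers were 364868 in BS replicate 1, the BS sample lowest in Gja1. In HC they were 218700 in replicate 1, the lowest in Gja1, and 200321 in replicate 3, the highest. The part of these differences in the Gja1 values was not tested. Divided by Aldh1l1 of the same sample, Gja1 was 4.62 ± 0.737 (SD, n = 3) in OB, 5.12 ± 0.497 (SD, n = 3) in HC, 4.55 ± 0.533 (SD, n = 2) in CX and 3.74 ± 0.656 (SD, n = 3) in BS. On this ratio CX no longer led, and BS overlapped with OB and CX.

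Gjb6 encodes connexin 30, the other main astrocytic connexin, on the minus strand of chromosome 14 (57123303 to 57133611). The 250 bases before its start (chr14:57133612-57133861, GRCm38.p6, minus strand) held none of the 6 motifs and 56.8% G and C.

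Gjb6: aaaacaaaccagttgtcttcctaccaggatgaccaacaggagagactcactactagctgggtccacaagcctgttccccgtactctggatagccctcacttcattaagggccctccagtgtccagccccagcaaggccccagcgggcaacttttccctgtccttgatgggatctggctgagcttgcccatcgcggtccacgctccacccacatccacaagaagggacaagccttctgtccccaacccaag

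Gjb6 differed less among the regions than any other of the 7 genes, with a highest mean only 1.39 times the lowest. Its values were 1638, 1359 and 1980.1 in OB, and 1768, 1702 and 2419 in HC. In CX they were 2459.9 and 2165, and in BS 1553, 3153 and 2014. Every region overlapped with at least 1 other, and BS alone spanned nearly the whole range of the 11 samples. The means were 1659 ± 311 (SD, n = 3) in OB, 1963 ± 396 (SD, n = 3) in HC, 2312 ± 209 (SD, n = 2) in CX and 2240.1 ± 824 (SD, n = 3) in BS. The adjusted p among the regions was 0.505, and the log2 difference of OB, the lowest region, from the others was -0.36 (SE 0.21, unadjusted p of 0.110). Neighbours in the order CX, BS, HC and OB had adjusted p-values of 0.860, 0.846 and 0.689.

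The balance between both main astrocytic connexins did differ by region. The value of Gjb6 divided by that of Gja1 in the same sample does not depend on the size factor. It was 0.682, 0.800 and 0.691 in the BS replicates. It was 0.446, 0.289 and 0.405 in OB, 0.603, 0.449 and 0.488 in HC, and 0.448 and 0.421 in CX. Each BS sample lay above each of the other 8, and per length the ratio ran from 1.09 to 1.28 in BS and from 0.462 to 0.966 elsewhere. Thus, by the exonic lengths used here, only the BS samples held more Gjb6 than Gja1 transcript per kb. These lengths are from GENCODE M21, whereas the authors counted reads on UCSC transcript models. The part of other cell types in the ratio was not tested. The mean log2 ratio in BS exceeded that of the other samples by 0.73 (two-sided exact permutation test over 165 splits, p = 0.00606, the smallest it can give, adjusted over 4 regions p = 0.0242). In OB the mean log2 ratio was 0.58 lower than elsewhere (log2 difference -0.58, exact permutation p = 0.0303, adjusted p = 0.0606), and HC and CX differed from the rest by 0.04 and -0.25 (adjusted exact permutation p = 0.873 and 0.630). With any one of the BS samples left out, the exact test has 45 splits and a smallest p of 0.0222, and the adjusted p was 0.0667 with a difference of 0.66 to 0.77. Without OB replicate 1, the adjusted exact permutation p of OB was 0.0444.

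**Figure D3:**
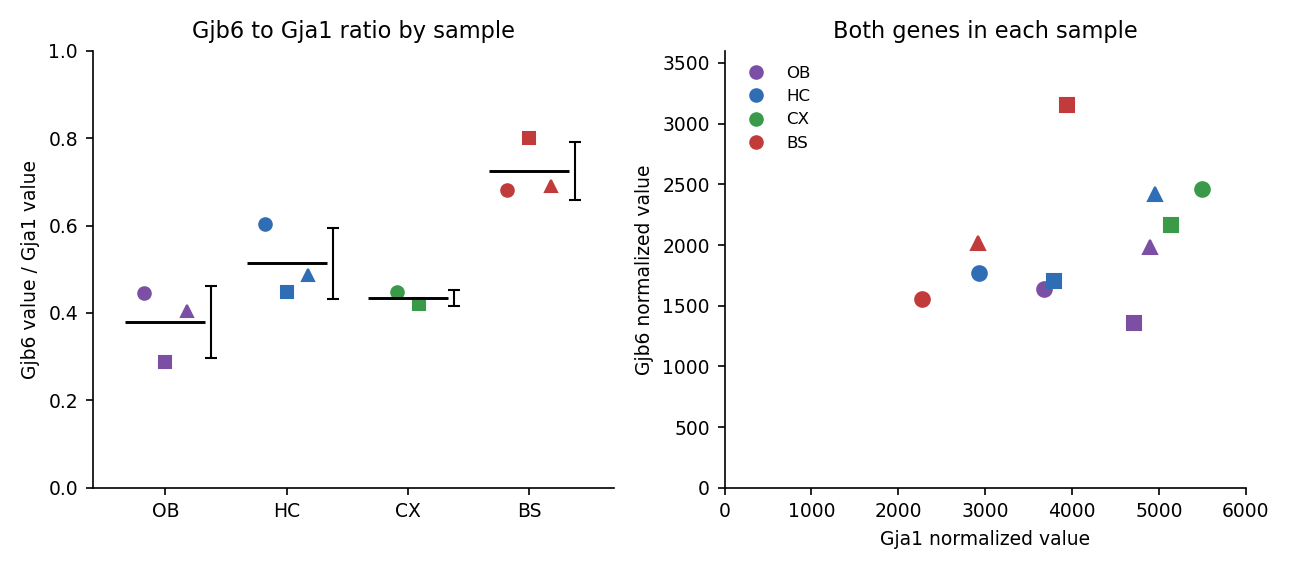
Left, value of Gjb6 divided by that of Gja1 in each sample (y axis) by region (x axis), with the region mean as a line and the SD as a bar; right, both normalized values of each sample, coloured by region and with the same symbol per replicate. The 3 BS samples sit between 0.682 and 0.800, above all other samples, and in the right plot they lie on the upper left edge of the points.

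The Gjb6 term was also set against Aldh1l1. Relative to Aldh1l1, Gjb6 was 2.69 ± 0.327 (SD, n = 3) in BS and 2.65 ± 0.609 (SD, n = 3) in HC. It was 1.97 ± 0.147 (SD, n = 2) in CX and 1.73 ± 0.314 (SD, n = 3) in OB. On this scale every BS sample had more Gjb6 than every OB sample, whereas for Gja1 OB replicate 1, at 3.77, lay within the BS range of 3.14 to 4.44. These ratios are given without a test.

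Gjb2 encodes connexin 26 and is the neighbour of Gjb6 on chromosome 14 (57098600 to 57104702, minus strand), with 18.6 kb between both genes. Its upstream window (chr14:57104703-57104952, GRCm38.p6, minus strand) is shown beside that of Gjb6 because the neighbours differed in their order of regions. It was richer in G and C, at 69.2%, and held 3 matches.

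Gjb2: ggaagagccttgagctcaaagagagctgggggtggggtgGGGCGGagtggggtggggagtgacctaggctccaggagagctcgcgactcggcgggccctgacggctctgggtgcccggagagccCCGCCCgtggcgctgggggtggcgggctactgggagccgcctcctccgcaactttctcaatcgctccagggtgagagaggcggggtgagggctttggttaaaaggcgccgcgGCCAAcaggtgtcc

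The capitals mark the GC box GGGCGG at 211 to 206 bases and, in reverse, at 126 to 121 bases before the start, and a reverse match to TTGGC, a half-site of the NFI factors, at 14 to 10 bases. Of all windows, 32.74% held a GC box and 41.51% the half-site.

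Gjb2 was highest in OB, the region where Gjb6 had its lowest mean. In OB the values were 192, 219 and 212. In HC they were 116, 97.7 and 149.7, in CX 44.0 and 192, and in BS 139.8, 130.2 and 69.5. The 3 OB samples lay above all others, by a small margin over CX replicate 2 (192.2 in OB replicate 1 against 191.7). The means were 208 ± 13.7 (SD, n = 3) in OB, 121 ± 26.3 (SD, n = 3) in HC, 118 ± 104 (SD, n = 2) in CX and 113 ± 38.2 (SD, n = 3) in BS. The log2 difference of OB from the others was 0.94 (SE 0.36, unadjusted p of 0.0205, adjusted p = 0.179), which did not pass the rule, and the adjusted p among the regions was 0.261. The CX replicates differed 4.36-fold, on 35 and 125 reads. Without CX replicate 2, the OB difference was 1.05 with an unadjusted p of 0.00814, and the adjusted p among the regions was 0.0143, with Gjb2 also called in CX and between OB and CX. Neighbours in the order OB, HC, CX and BS had adjusted p-values of 0.356, 0.823 and 0.827.

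Set against Gjb6 in the same sample, Gjb2 ran from 0.107 to 0.161 in OB and reached at most 0.0900 elsewhere, in BS replicate 1. This separation is a description without a test. The 8 ensheathing markers were called higher in OB in 8 of 8 cases. Within OB they summed to 2436, 2024 and 2182 in replicates 1 to 3, where Gjb2 was 192, 219 and 212. CX replicate 2, with a Gjb2 of 191.7, had an ensheathing sum of 159. The 11 leptomeningeal markers had a median log2 difference of 0.77 in OB, with Igf2 called lower and 0 called higher. Frzb, a secreted Wnt antagonist, had a mean of 707 ± 62.6 (SD, n = 3) in OB and at most 16.9 in another region, and the neuropeptide gene Npy had 754 ± 167 (SD, n = 3) in OB and at most 14.7. Between CX replicates 1 and 2, which differed in Gjb2, the summed endothelial markers were 345 and 1256 and the summed leptomeningeal markers 497.5 and 668. Igf2 alone held 381 and 354 of the leptomeningeal sums, and the mean log2(value + 1) of that list was 3.30 and 4.81. The part of these cell types in the Gjb2 values was not tested.

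**Figure D4:**
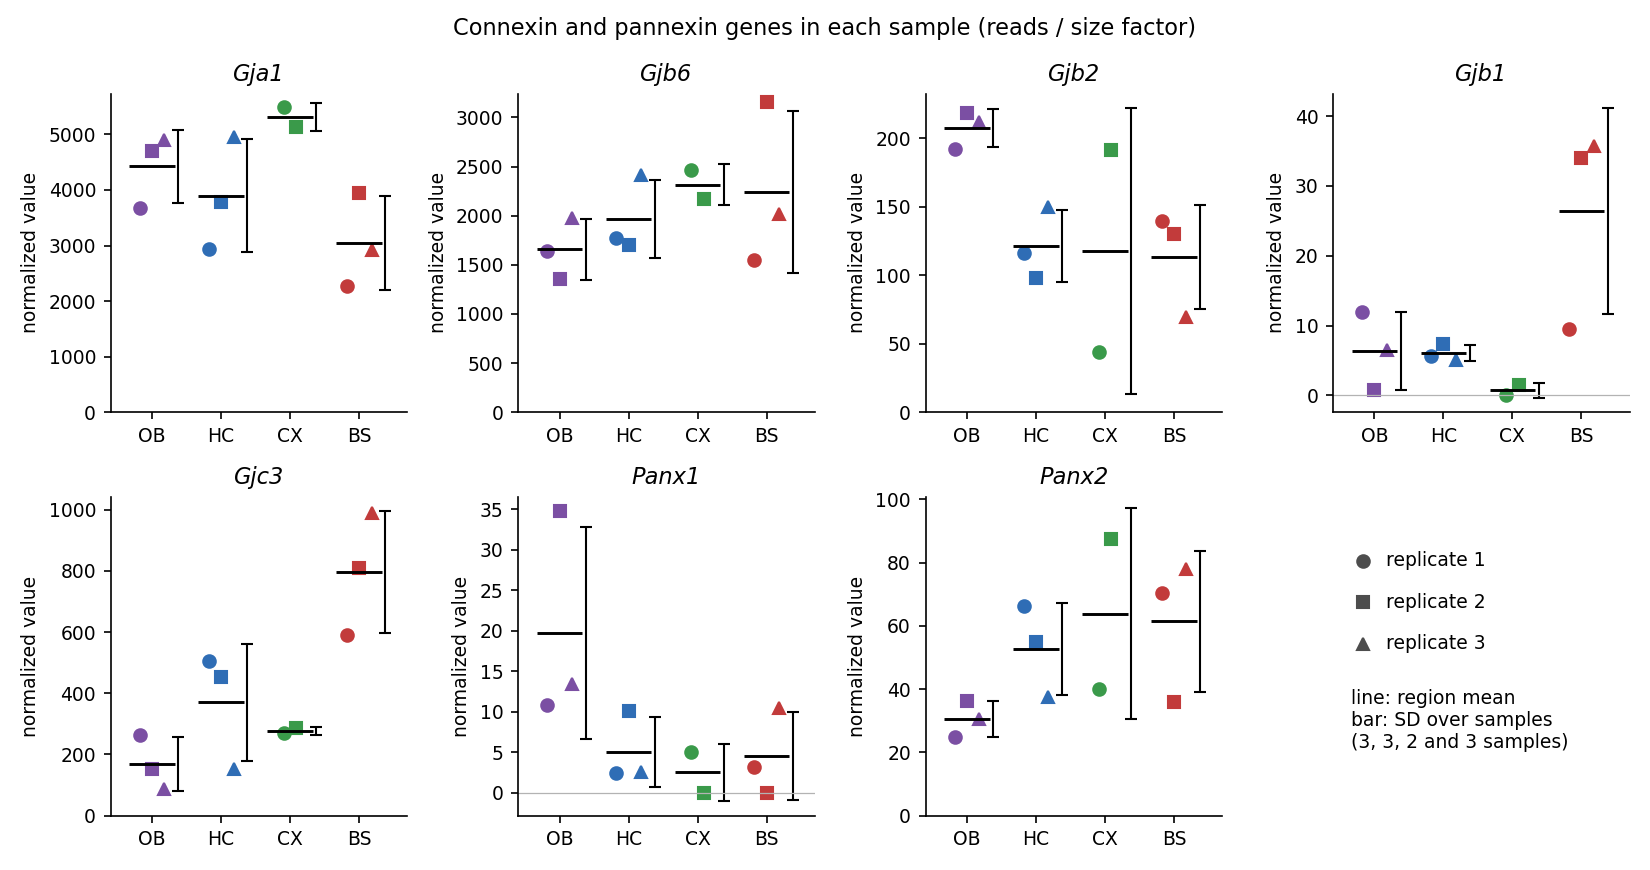
Normalized value (reads divided by the size factor, y axes starting at 0 or just under it) of each of the 7 genes in each sample by region (x axes), with the region mean as a line and the SD as a bar. Gjc3 in BS, Gja1 in CX, and Gjb2 and Panx1 in OB are the genes whose samples of one region all lie above all others.

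Gjc3 encodes connexin 29, a connexin of oligodendrocytes and other myelinating glia, on the minus strand of chromosome 5 (137953461 to 137963098). Its upstream window (chr5:137963099-137963348, GRCm38.p6, minus strand), shown because Gjc3 was the gene called among the regions, held none of the 6 motifs.

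Gjc3: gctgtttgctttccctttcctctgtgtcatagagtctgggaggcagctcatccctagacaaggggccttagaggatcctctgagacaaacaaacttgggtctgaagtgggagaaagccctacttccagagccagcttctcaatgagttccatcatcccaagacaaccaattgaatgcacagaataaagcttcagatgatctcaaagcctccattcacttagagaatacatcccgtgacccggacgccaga

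Gjc3 was the most regional of the well-measured genes, high in BS and low in OB, with a highest mean 4.73 times the lowest. The values in BS were 592, 809 and 989. They were 504, 453 and 153 in HC, 269 and 287 in CX, and 264, 153 and 88.3 in OB. All BS samples lay above all others, and OB overlapped with HC only through HC replicate 3. The means were 797 ± 199 (SD, n = 3) in BS, 369.9 ± 190 (SD, n = 3) in HC, 278 ± 12.6 (SD, n = 2) in CX and 168 ± 88.8 (SD, n = 3) in OB.

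Gjc3 rose in BS against the other regions by 1.72 on the log2 scale (SE 0.43, unadjusted p of 0.00135, adjusted p = 0.0332). It fell in OB by 1.501 (SE 0.49, unadjusted p of 0.00803, adjusted p = 0.106), and the adjusted p among the regions was 0.00663. Between OB and BS the log2 difference was -2.34 (SE 0.42, adjusted p = 0.00126). HC and CX lay 1.25 and 1.49 under BS (log2 differences -1.25 and -1.49, adjusted p = 0.120 and 0.0535), which did not pass, and the remaining neighbours in the order, HC with CX and CX with OB, had adjusted p-values of 0.903 and 0.400. The BS call was lost without BS replicate 3 (log2 difference 1.55, unadjusted p of 0.0110). The OB call was lost in 7 of 11 fits with 1 sample left out, those without OB replicate 2 or 3, HC replicate 1 or 2 or any BS replicate, with p-values of 0.0116 to 0.0675, and it does not pass an adjusted p under 0.05. CX against BS passed without OB replicate 1 (adjusted p = 0.0407), OB replicate 3 (0.0409), HC replicate 1 (0.0422) or HC replicate 3 (0.0138), and OB against HC passed without HC replicate 3.

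Oligodendrocyte markers had the same order of regions as Gjc3. Of the 12 markers, 5 were called higher in BS, among them Mbp, Ugt8a, Mobp and Ermn, and 8 were called lower in OB, with median log2 differences of 1.49 and -2.005 against 0.02 over all genes tested in both comparisons. Mbp, the myelin basic protein gene, had a mean of 49387 ± 14525 (SD, n = 3) in BS and 6250 ± 2248 (SD, n = 3) in OB. HC replicate 3, low in Gjc3, was also low in Mbp, at 13413 against 29074 and 25321 in the other HC samples. After the mean log2 level of the 12 markers was taken off, log2(value + 1) of Gjc3 was -0.05 ± 0.24 (SD, n = 3) in BS, -0.16 ± 0.28 (SD, n = 2) in CX, -0.14 ± 0.27 (SD, n = 3) in OB and -0.45 ± 0.32 (SD, n = 3) in HC. On this scale the BS samples, from -0.19 to 0.24, overlapped with the OB samples, from -0.33 to 0.16.

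**Figure D5:**
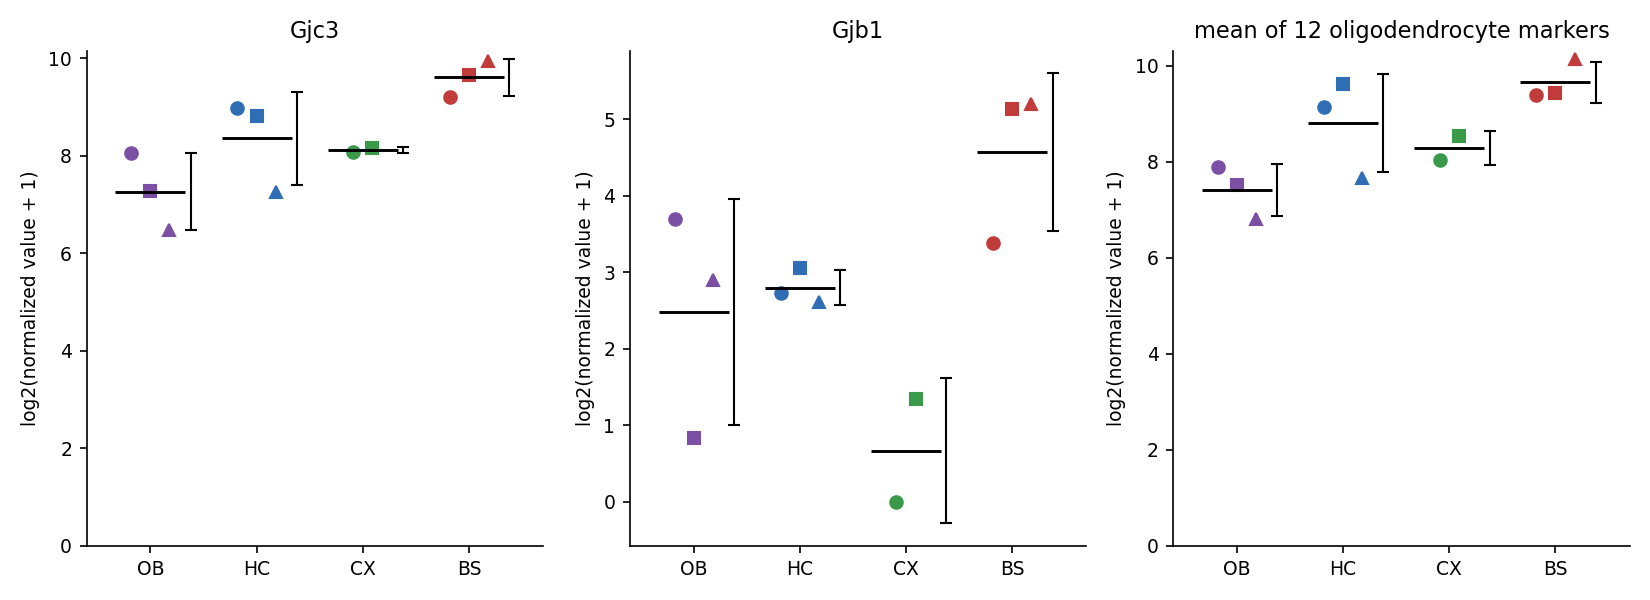
Level on the log2(value + 1) scale (y axes) of Gjc3, of Gjb1 and of the mean of 12 oligodendrocyte markers in each sample by region (x axes), with the region mean as a line and the SD as a bar. Gjc3 and the marker mean share the high BS samples, the low OB samples and the low HC replicate 3, while Gjb1 is at 0 in CX replicate 1.

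Gjb1 encodes connexin 32, the oligodendrocyte connexin that is also found in Schwann cells, on the plus strand of chromosome X (101376378 to 101385629). It was highest in BS, at 9.46, 34.1 and 35.8. In OB the values were 11.9, 0.789 and 6.46, in HC 5.62, 7.31 and 5.14, and in CX 0 and 1.53. BS replicates 2 and 3 lay above all other samples, but BS replicate 1 lay under OB replicate 1. These values rest on 24 reads in OB, 31 in HC, 43 in BS and 1 in CX, and the 0 reads of CX replicate 1 allow a value of up to 3.77. The read rate of BS was 32.3 times that of CX (95% exact interval 5.50 to 1307). Gjb1 was lower in CX than in BS (log2 difference -3.90, SE 0.98, adjusted p = 0.0181), a fitted value that depends on the pseudocount. This call was lost without CX replicate 1 (adjusted p = 0.184), without BS replicate 3 (adjusted p = 0.0670) and in edgeR (adjusted p = 0.0606). BS against the other regions missed the threshold narrowly (log2 difference 2.43, SE 0.82, unadjusted p of 0.0103, adjusted p = 0.104) and passed it without OB replicate 1 (unadjusted p of 0.00648) and without BS replicate 1 (unadjusted p of 0.00717). CX against the others had a log2 difference of -2.61 (SE 1.00, unadjusted p of 0.0208), which passed without OB replicate 2 (unadjusted p of 0.00494). The adjusted p among the regions was 0.0570, and 0.0406 and 0.0438 without OB replicate 2 and without BS replicate 1. Neighbours in the order BS, OB, HC and CX had adjusted p-values of 0.132, 0.916 and 0.389. The oligodendrocyte markers given above were high in BS as well, but they were lower in OB than in CX, opposite to Gjb1, and their part in the Gjb1 values was not tested.

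Panx1 encodes pannexin 1, the ATP-releasing channel, on the minus strand of chromosome 9 (15002128 to 15045478). It was near the detection limit outside OB. The values were 10.9, 34.7 and 13.5 in OB, 2.499, 10.05 and 2.57 in HC, 5.03 and 0 in CX, and 3.15, 0 and 10.5 in BS. All 3 OB samples lay above the others, though OB replicate 1 (10 reads) exceeded BS replicate 3 (5 reads) by less than the worth of 1 read. In CX replicate 2 and BS replicate 2, 0 reads allow values of up to 4.60 and 6.01. The log2 difference of OB from the others was 2.28 (SE 0.85, unadjusted p of 0.0178, adjusted p = 0.166), which did not pass, and the adjusted p among the regions was 0.242. Neighbours in the order OB, HC, BS and CX had adjusted p-values of 0.388, 0.881 and 0.824.

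Panx2 encodes pannexin 2, a pannexin known mainly from the nervous system, on the plus strand of chromosome 15 (89059734 to 89073567). An antisense gene, 1810021B22Rik, overlaps it, and since counting by strand is not stated, reads of both cannot be told apart. Its level was the reverse of that of Panx1 in that OB was lowest. The values were 25.0, 36.3 and 30.7 in OB and 66.2, 54.8 and 37.4 in HC. They were 40.2 and 87.4 in CX and 70.4, 36.1 and 77.9 in BS. OB overlapped with BS through BS replicate 2 alone. The means were 30.7 ± 5.67 (SD, n = 3) in OB, 52.8 ± 14.5 (SD, n = 3) in HC, 63.8 ± 33.4 (SD, n = 2) in CX and 61.5 ± 22.3 (SD, n = 3) in BS. The OB difference did not pass (log2 difference -0.86, SE 0.34, unadjusted p of 0.0245, adjusted p = 0.197), nor did any difference among the regions (adjusted p = 0.369). Neighbours in the order CX, BS, HC and OB had adjusted p-values of 0.986, 0.904 and 0.415.

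Over the 6 pairs of regions, at an adjusted p under 0.05, limma called 1 of the 7 genes between OB and BS (Gjc3), where 15.0% of all genes were called. It called 1 between CX and BS (Gjb1), where 10.9% were. It called 0 of the 7 between OB and HC, OB and CX, HC and CX, and HC and BS, where 7.11%, 4.91%, 1.23% and 4.63% of all genes were called. In these 4 pairs 1, 2, 1 and 1 of the 7 had an unadjusted p under 0.05, and edgeR and DESeq2 called 0 as well. Between OB and BS 5 of the 7 had an unadjusted p under 0.05. The share of all genes at this unadjusted threshold was not counted, so these counts have no background to be read against. Counted by overlap alone, all samples of OB lay beyond all others for Gjb2 and Panx1, those of CX for Gja1, those of BS for Gjc3 and those of HC for none. Of all genes tested, 8.17% did so in OB, 8.17% in CX, 7.89% in BS and 1.54% in HC.

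The 16 other connexin and pannexin genes were mostly absent or low. Of these, 9 had no read in any sample and 3 passed the filter, namely Gja4 and Gja5, the vascular connexins 37 and 40, and Gjc1, connexin 45. Gjc1 had reads in all 11 samples, 357 in total, with region means of 22.4 in CX to 37.7 in OB. Gja4 had region means of 2.16 in CX to 19.0 in BS. Gja5 was carried by BS replicate 2, at 58.1, and HC replicate 1, at 25.0, with values of 0 to 3.07 in the other samples. Limma called 0 of the 3 in every region, with 1 at an unadjusted p under 0.05 (Gja4 in BS) and adjusted p-values among the regions of 0.268, 0.785 and 0.736.

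Genes that act on connexin 43 were called in single cases, where 8.04% of all genes were called in OB and 9.03% in BS. Of 9 scaffold and cytoskeletal partners, 2 were called higher in OB. Cav1, the caveolar coat protein caveolin 1, had 363 ± 96.1 (SD, n = 3) in OB against region means of 83.9 to 191 elsewhere (log2 difference 1.59, SE 0.38, adjusted p = 0.0284). Cdh2, N-cadherin, had 2926 ± 462 (SD, n = 3) in OB and 1208 to 2160.3 elsewhere (log2 difference 1.01, SE 0.27, adjusted p = 0.0486). Of 8 trafficking and degradation genes, only Cnst, which encodes consortin, a receptor for connexins at the trans-Golgi network, was called. It was higher in BS, at 298 ± 106 (SD, n = 3) against 129 to 216 elsewhere (log2 difference 0.81, unadjusted p of 0.00904, adjusted p = 0.0955). Of 9 kinases that phosphorylate connexins, Prkca was higher in OB, at 865 ± 235 (SD, n = 3) against 329 to 550.2 (log2 difference 0.85, unadjusted p of 0.00398, adjusted p = 0.0708). Prkce was lower in BS, at 142 ± 28.3 (SD, n = 3) against 205 to 359 (log2 difference -1.02, adjusted p = 0.0283).

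Genes whose pattern over the 11 samples was most like that of each connexin or pannexin were taken from 8811 tested genes with a mean value of at least 50, as the 3 highest Pearson correlations of log2(value + 1). The samples share their libraries and region grouping, so these are descriptions. For Gja1 they were Aldh5a1 (r = 0.970), the succinic semialdehyde dehydrogenase gene, Pcdh10 (r = 0.962), a protocadherin gene, and Spag9 (r = 0.962). For Gjb6 they were Asb8 (r = 0.925), the monoamine oxidase gene Maoa (r = 0.923) and the transcriptional coactivator gene Ppargc1a (r = 0.916). For Gjb2 they were E130309D02Rik (r = 0.959), Galnt18 (r = 0.914) and Ano10 (r = 0.911). The 3 lists share no gene, but with only 3 genes taken from 8811 for each this does not tell whether the patterns differ. For Gjc3 the nearest were Dbndd2 (r = 0.979), Usp31 (r = 0.975) and Pex5l (r = 0.967). Gjb1, Panx1 and Panx2, with fewer reads, had their nearest genes at lower values, namely Ccdc32 (r = 0.892), Orc4 (r = 0.883) and Sorbs3 (r = 0.905).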

How the data were processed

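The deposited values were used as they stand. Per the labels and the study's methods, the authors made rRNA-depleted Trio RNA-Seq libraries from 5 ng of total RNA, mapped reads with STAR 2.5.0a to mm10, took counts per gene from UCSC transcript models and scaled them with DESeq2 1.20.0. The deposited unit is thus a normalized signal, 1 size factor per sample, and 100% of values above 0 came out as whole numbers of reads (tolerance 0.01), which gave the read counts back.

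Genes were filtered with edgeR 4.0.16 (filterByExpr) and tested two-sided with limma 3.58.1 (R 4.3.3, mean-variance trend) on log2(value + 1) over all genes, with Benjamini and Hochberg adjustment. The rule for a region against the others follows the study's thresholds. Alternatives on the reads used DESeq2 1.42.0 and the quasi-likelihood test of edgeR, which called 1137 (OB), 188 (HC), 296 (CX) and 1126 (BS) genes. Exact permutation tests were run in Python 3.11.15, and the exact interval of the Gjb1 read rate used scipy 1.17.1. The pipeline was tested on simulated data. All 7 genes are described. Of the other lists, genes that passed the filter or were called are named, with up to 4 per partner list, and of marker lists the first 2 detected. Some genes of these lists are not reported here. Atp1b2, S100b, Aqp4, Slc1a2, Gfap, Igf2 and Mbp in single samples were singled out after their values were seen. Members and lists were chosen with earlier results of these data known. Gene positions and exonic lengths are from GENCODE M21, upstream windows from RefSeq (GRCm38.p6), where 6 of the 7 genes matched.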

Additional observations from a re-analysis of the deposited data

How the results depend on the processing

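Counts of called genes among the 7 were recomputed with other tests, pseudocounts, filters, thresholds and a replicate block, and without each sample. These counts show which of the 7 genes moved, and are given without the share of all genes called under each setting. With DESeq2 the count was 2 among the 4 regions (Gjb1 and Gjc3), 2 in OB (Gjc3 and Panx1), 2 in BS (Gjb1 and Gjc3) and 3 for CX against BS (Gja1, Gjb1 and Gjc3). With edgeR it was 0 for CX against BS. With a mean for each region it was 1 in CX (Gjb1) and 3 in BS (Gja1, Gjb1 and Gjc3). With an adjusted p under 0.05 it was 0 in OB. Same-numbered samples of different regions were not paired by the labels, and their deviations correlated at -0.16 to 0.25 over 15 pairs, over 0.1 in 3 of them. With the replicate block the count was 0 in OB (Gjc3, unadjusted p of 0.0150) and 3 for CX against BS (Gja1, Gjb1 and Gjc3), and the block moved no other count. The other 45 counts and ratios under these settings kept their values within the limits used.

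With single samples left out, counts ranged from 1 to 2 among the regions, 0 to 2 in OB, 0 to 0 in HC, 0 to 1 in CX and 0 to 2 in BS. For the pairs they ranged from 0 to 1 (OB and HC), 0 to 1 (OB and CX), 1 to 2 (OB and BS) and 0 to 3 (CX and BS), and the other 2 pairs stayed at 0. A CX contrast then rests on 1 CX sample assumed to vary like the other regions. The log2 Gjb6 to Gja1 ratio differed by -0.71 to -0.39 in OB, -0.35 to -0.17 in CX and 0.64 to 0.80 in BS. In HC it ranged from -0.0858 to 0.13 and turned its sign without OB replicate 2 (-0.0757), OB replicate 3 (-0.0061) or HC replicate 1 (-0.0858), with no call in any fit. Beyond fewer samples and, for the adjusted p, a stricter threshold, the cause of these changes was not tested. Depth limits Gjb1 and Panx1, at 99 and 113 reads in all, and CX holds 2 samples.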
